A study of Homo sapiens with 4 samples.

Results

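The loci described here are those of 10 erythroid transcription factor genes: GATA1, GATA2, KLF1, TAL1, LMO2, LDB1, ZFPM1, NFE2, GFI1B and BCL11A. They were named from among the 20037 protein-coding genes with earlier results of these data known, although the rule itself uses no measured value. Every H3K27ac peak overlapping a gene's span or the 100 kb on either side was taken as belonging to its locus. This gave 160 of the 65118 peaks of cells given daunorubicin and 124 of the 38626 peaks of untreated cells. The 10 genes lie on 10 different chromosomes, so no peak was counted for more than 1 of them. H3K27ac, acetylation of lysine 27 on histone H3, marks active promoters and enhancers and was profiled by ChIP-seq. The cells were K562, a human line from a chronic myeloid leukaemia in blast crisis that carries the BCR-ABL1 fusion and resembles early red cell and megakaryocyte precursors. They were cultured with 1 uM daunorubicin for 18 h or without the drug. Daunorubicin, an anthracycline used against leukaemia, inserts between DNA bases and traps topoisomerase II on its cut. Each condition had 1 H3K27ac library and 1 input library made without antibody, so no difference below has a replicate check and none was tested.

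In red cell precursors GATA1 binds DNA together with TAL1, and LMO2 and LDB1 bridge them into 1 complex that acts at promoters and distant enhancers. GATA2 holds the same kind of sites in progenitors and gives way to GATA1 as cells mature, a change known as the GATA switch. KLF1 binds CACCC boxes of globin and other red cell genes, ZFPM1 encodes the GATA1 cofactor FOG1, and NFE2 encodes the large subunit of NF-E2, which acts at the globin control regions. GFI1B and BCL11A are repressors, and BCL11A silences the fetal globin genes in adult red cells.

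The whole daunorubicin list had 1.69 times as many peaks as the untreated list and covered 1.59 times its length, and this background stands behind every gain reported here. No read totals were analysed here, and depth is therefore unknown. Scores are the authors' own, have no stated formula, and are read only within a list. They ran from 10 to 660 with daunorubicin, with a median of 41, and from 10 to 876 without it, with a median of 43. The inputs had 87 peaks with daunorubicin and 92 without, and none lay at any of the 10 loci.

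Promoter sequences of the genes are shown first, because at several of them the peak borders lay close to the annotated start. The RefSeq promoter table of GRCh38.p14 held 15 starts for 8 of the 10 genes, and LMO2 and NFE2 are named only. The 250 bases before a start are written 5′ to 3′ along the gene. Capitals mark GATA words (AGATAA and AGATAG, or the same with T in the first place, TGATAA and TGATAG) and CACCC-like words (CCNCNCCC), each on either strand and with overlapping matches run together.
GATA1 (chrX:48786340-48786589, plus strand): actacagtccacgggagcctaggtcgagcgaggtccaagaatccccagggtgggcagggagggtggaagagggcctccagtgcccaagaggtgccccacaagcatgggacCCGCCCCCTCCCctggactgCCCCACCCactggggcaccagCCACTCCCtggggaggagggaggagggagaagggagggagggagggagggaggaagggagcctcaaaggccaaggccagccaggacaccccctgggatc
GATA2, second start (chr3:128488531-128488780, minus strand): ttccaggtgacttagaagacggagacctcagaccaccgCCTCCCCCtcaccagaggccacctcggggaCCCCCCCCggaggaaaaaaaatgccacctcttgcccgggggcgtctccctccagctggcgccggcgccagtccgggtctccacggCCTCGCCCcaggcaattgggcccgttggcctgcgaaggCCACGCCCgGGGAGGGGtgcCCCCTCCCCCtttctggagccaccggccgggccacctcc
KLF1 (chr19:12887202-12887451, minus strand): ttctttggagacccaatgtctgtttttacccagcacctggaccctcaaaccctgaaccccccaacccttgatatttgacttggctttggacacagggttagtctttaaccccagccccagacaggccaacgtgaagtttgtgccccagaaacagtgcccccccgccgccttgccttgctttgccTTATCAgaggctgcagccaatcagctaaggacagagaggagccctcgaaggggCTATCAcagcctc
TAL1, first start (chr1:47232336-47232585, minus strand): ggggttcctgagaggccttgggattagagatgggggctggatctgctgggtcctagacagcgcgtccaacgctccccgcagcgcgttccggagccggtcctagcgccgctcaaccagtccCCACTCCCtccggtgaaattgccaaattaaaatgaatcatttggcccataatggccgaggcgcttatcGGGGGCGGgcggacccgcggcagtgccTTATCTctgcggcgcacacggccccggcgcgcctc
ZFPM1 (chr16:88453030-88453279, plus strand): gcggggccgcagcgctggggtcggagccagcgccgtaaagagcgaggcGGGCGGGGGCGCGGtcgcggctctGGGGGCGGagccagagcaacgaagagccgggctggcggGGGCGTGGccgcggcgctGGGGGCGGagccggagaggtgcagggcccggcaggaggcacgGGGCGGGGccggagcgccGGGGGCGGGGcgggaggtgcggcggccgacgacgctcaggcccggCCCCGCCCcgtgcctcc
GFI1B, second start (chr9:132978444-132978693, plus strand): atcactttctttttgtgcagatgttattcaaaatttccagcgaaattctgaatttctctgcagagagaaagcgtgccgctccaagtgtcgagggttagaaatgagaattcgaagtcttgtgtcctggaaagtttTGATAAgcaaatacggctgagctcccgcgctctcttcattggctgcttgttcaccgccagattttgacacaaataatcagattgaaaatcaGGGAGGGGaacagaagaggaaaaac

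A GATA word was found before 3 of the 15 starts, at KLF1, TAL1 and GFI1B, a share of 20.0% against 22.3% of all 35116 promoters of the table. The KLF1 stretch held 2 of them. CACCC-like words stood before 11 starts (73.3%, against 53.4% of all promoters), and E-boxes (CANNTG, not capitalised) before 7 (46.7%, against 61.8%). Of the 15 starts 5 are those of BCL11A, so they are not independent. The annotated start itself lay under a daunorubicin peak at 4 of the 15 starts and under an untreated peak at 3, whereas 37.5% of all starts lay under a daunorubicin peak and 37.4% under an untreated one. KLF1, the second start of TAL1 and the second start of GATA2 were covered in both libraries, and the LDB1 start with daunorubicin only.

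**Figure D1:**
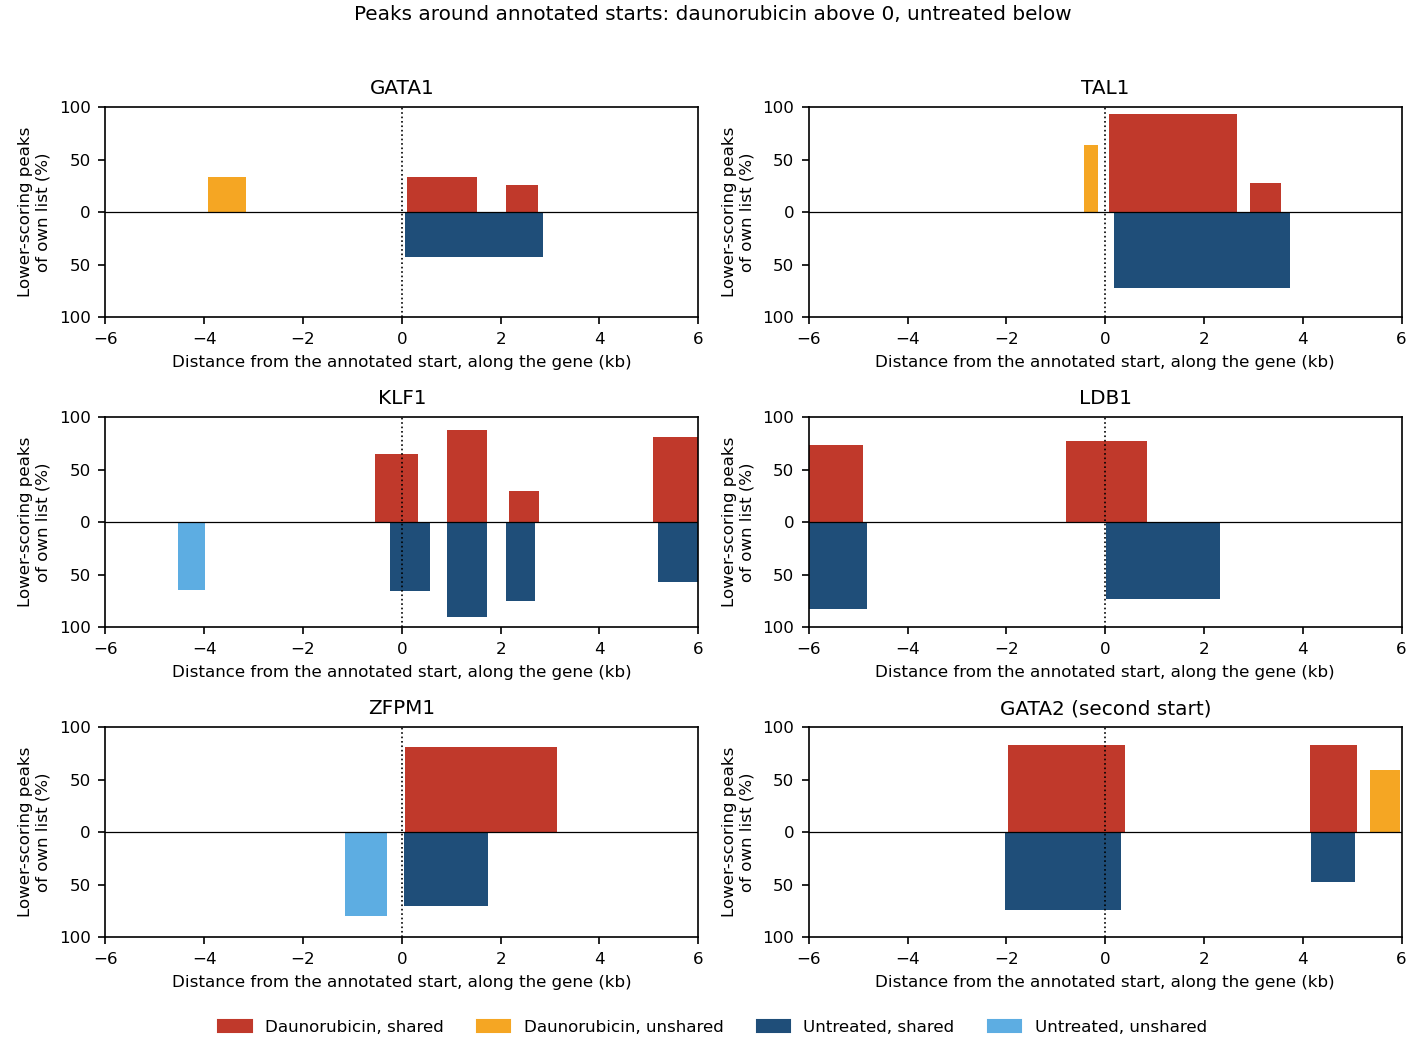
Peaks within 6 kb of 6 annotated starts, with distance along the gene in kb on the x axis. The height is the percentage of the same list's peaks with a lower score, drawn upwards for daunorubicin and downwards for untreated cells (1 library each), and light colours mark peaks without an overlapping peak in the other list. KLF1 and the second GATA2 start are covered in both, and the nearest peaks to the starts of GATA1, TAL1 and ZFPM1 end 41 to 170 bp from them.

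GATA1 (chromosome X, 48786590 to 48794311) had 13 peaks over 11949 bp with daunorubicin and 11 peaks over 10075 bp without it. With daunorubicin 2 peaks of score 29 and 25 stood behind the start, the first from 114 bp inside it and above 33.2% of its list. In untreated cells 1 peak of 2803 bp and score 36 covered the same place from 61 bp inside the start. The 250 bases shown above were free of peaks in both libraries. At the other end of the gene the daunorubicin peaks scored 20 and 25, and the untreated ones 34 and 17. A region 3150 bp before the start (chrX:48782677-48783440, score 29) was called only with daunorubicin. In mouse, Gata1 has a haematopoietic enhancer upstream of its start, and whether this region corresponds to it was not tested. The highest peaks of the window belonged to neighbours, with 192 at the end of HDAC6 with daunorubicin and 276 near SUV39H1 in untreated cells. Of the regions called in 1 library only, the highest were 77030 bp above the lower end with daunorubicin (score 72) and 14977 bp below it without the drug (score 20).

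GATA2 (chromosome 3, 128479422 to 128493201) had 18 peaks over 18300 bp with daunorubicin and 13 over 15613 bp without it. Both of its ends were free of peaks to 1 kb in either library. The second start was covered by the highest peak of the window in each library, 2355 bp wide with daunorubicin (score 115) and 2357 bp wide without it (score 117). Both peaks also cover an end of the antisense gene GATA2-AS1. The whole 250 bases shown above lay under both, and they held 7 CACCC-like words and no GATA word. Inside the gene a peak at chr3:128483430-128484382 scored 114 with daunorubicin, above 83.1% of its list. The untreated peak at the same place scored 40, above 47.1% of its own. Next to it a 622 bp region (chr3:128482559-128483180, score 52) was called only with daunorubicin, 292 bp from the untreated peak. GATA2 has an intronic enhancer bound by GATA factors in mouse and human, and whether it lies under these peaks was not tested. In all 12 regions were in both libraries and 5 only with daunorubicin. The only region called in untreated cells alone (chr3:128426317-128426966, score 31) lay 94 bp from an end of EEFSEC.

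TAL1 (chromosome 1, 47216290 to 47232335) had 13 peaks over 13449 bp with daunorubicin, against 9 over 9008 bp in untreated cells. The ratio was 1.49, and it was 1.68 in windows of 50 kb. At the start a 2589 bp daunorubicin peak of score 181, above 92.9% of its list, lay over the untreated peak of 3573 bp and score 106, above 72.5% of its list. A 284 bp region just before the first start (chr1:47232492-47232775, score 58) was called only with daunorubicin, and 94 of the 250 bases shown above lay under it. The untreated peak was 327 bp away. The GATA word of that stretch lies closer to the start, at position -35, and was under no peak of either list. A human erythroid enhancer of TAL1 is known at about 51 kb beyond the start, and peaks stood within 2 kb of that position in both libraries. The daunorubicin peak there was 3440 bp wide with a score of 138, and the untreated list had 2 peaks in its place, of score 26 and 132. Both lists also reach an end of CYP4A22-AS1 there, and the daunorubicin peak lies 689 bp from PDZK1IP1. The highest peak of the window scored 363 with daunorubicin and 298 in untreated cells, at the end of STIL. No region at TAL1 was called in untreated cells alone.

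KLF1 (chromosome 19, 12884422 to 12887201) is the shortest of the 10 genes and lies among 15 other protein-coding genes. Its window had 25 peaks over 20743 bp with daunorubicin, against 21 over 19647 bp in untreated cells (ratio 1.06). The gene itself was marked by 3 peaks in each library. The peak over the start scored 60 with daunorubicin (above 64.6% of its list) and 75 without it (above 65.6%). The one in the middle scored 140 with daunorubicin (above 87.8%) and 250 without (above 90.4%). The one at the far end scored 27 with daunorubicin and 121 without. The far-end peak was above 29.5% of its list with daunorubicin and above 75.1% of its list without it. All 250 bases before the start lay under the daunorubicin peak and 238 under the untreated peak, including both GATA words. A region 3991 bp before the start and 63 bp from an end of GCDH (chr19:12891192-12891728, score 71) was called only in untreated cells. The highest region called only with daunorubicin (chr19:12825024-12825965, score 51) crossed an end of RTBDN. Within 10 kb of the gene marking covered 3411 bp with daunorubicin and 3835 bp in untreated cells, the opposite order.

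**Figure D2:**
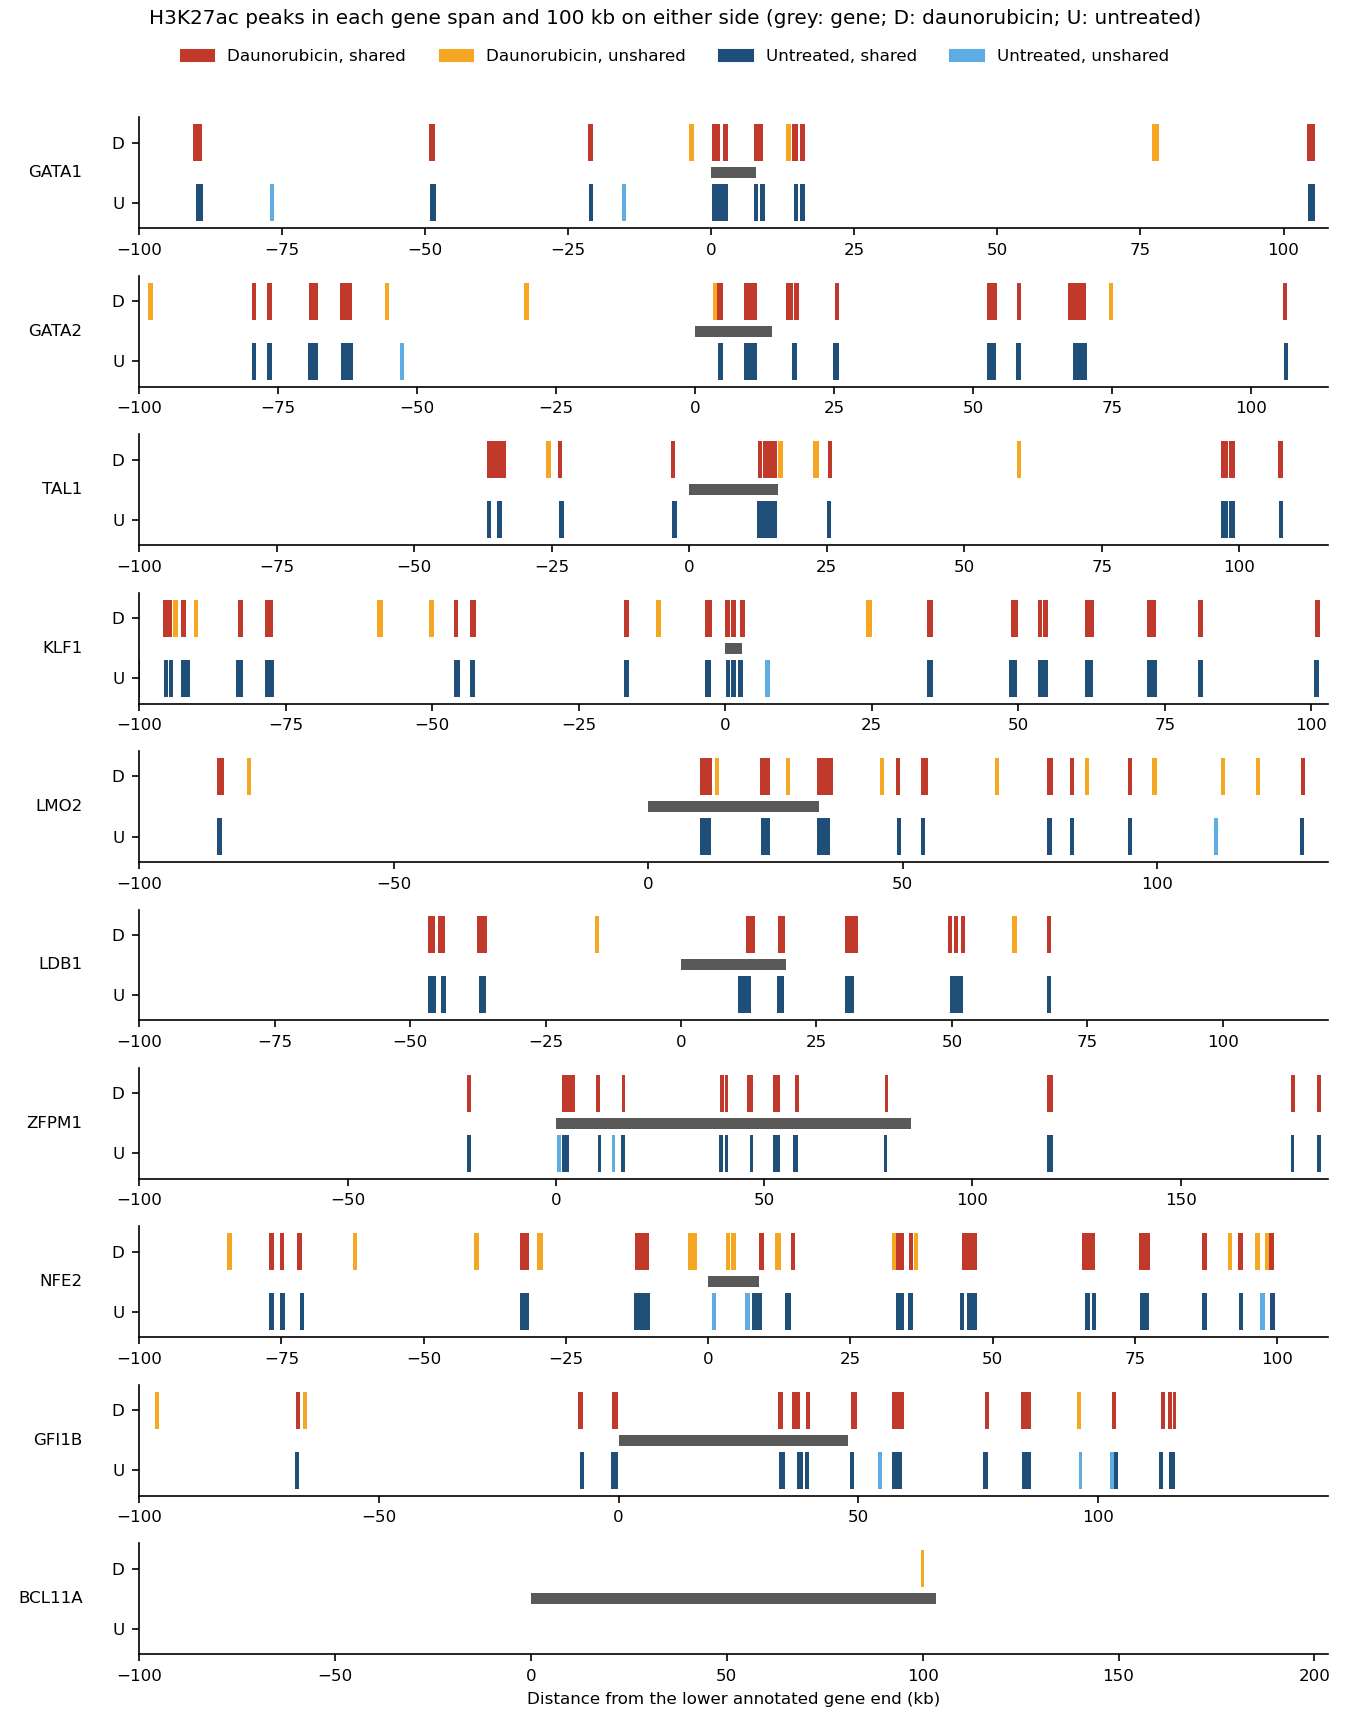
Every H3K27ac peak of the 10 loci, with distance from the lower annotated gene end in kb on each x axis, daunorubicin peaks above the grey gene bar and untreated peaks below it (1 library each). Light colours mark peaks without an overlapping peak in the other list, and peaks narrower than 0.8 kb are widened to be visible. Orange bars crowd the LMO2 and NFE2 panels, which hold 23 of the 47 daunorubicin-only regions, and the BCL11A panel holds 1 peak. The daunorubicin-only share of regions at LMO2 and NFE2 is close to the 44.6% of the whole lists.

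LMO2 (chromosome 11, 33858576 to 33892076) had 19 peaks over 18505 bp with daunorubicin and 11 over 12190 bp without it. Its ratio of 1.52 was the only one past 1.5 among the 9 genes with untreated peaks, and it was 1.38 in windows of 50 kb and 1.25 in windows of 10 kb. It was 1.21 with equal numbers of top-scoring peaks from each list and 3.03 with scores of at least 43. That cutoff puts 1 raw score on both lists. At LMO2 it drops untreated peaks of score 39, 40 and 41 and keeps a daunorubicin peak of score 43. The higher end of LMO2 was crossed by a 3250 bp daunorubicin peak of score 91 and a 2551 bp untreated peak of score 39. Of the 9 regions called only with daunorubicin, 6 lay above that end. At chr11:33936928-33938173, 44852 bp above the gene, the daunorubicin peak scored 148, above 89.1% of its list, and the untreated peak 34, above 40.6% of its list. A region 52327 bp above the gene (chr11:33944403-33945117, score 56) had the highest score of the 9 called only with daunorubicin. The 1 region called only in untreated cells (chr11:33969709-33970195) had a score of 20. The peak nearest the lower end, 10153 bp inside it, scored 78 with daunorubicin (above 73.1% of its list) and 142 in untreated cells (above 77.9%). The highest peaks were 170 with daunorubicin, 20088 bp above the gene, and 210 in untreated cells, at FBXO3. The distal enhancer of LMO2 fixed for a check was not evaluated, since the promoter table gives no strand for this gene.

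LDB1 (chromosome 10, 102102088 to 102121442) had 12 peaks over 13068 bp with daunorubicin and 8 over 11690 bp without it. Its annotated start inside the gene lay under a daunorubicin peak of score 90 (above 77% of its list) and 21 bp outside an untreated peak of score 109 (above 73%). All 250 bases before that start were under the daunorubicin peak and none under the untreated one, although the peaks themselves overlapped. The peak at the higher end scored 79 with daunorubicin (above 73.5% of its list) and 177 without (above 82.6%). It lay 16 bp from PPRC1 with daunorubicin and reached it in untreated cells, so the mark cannot be assigned to either gene. The highest untreated score of the window was 344, at a peak 10983 bp above the gene, above 96.6% of its list. The daunorubicin peak over it (chr10:102132274-102134697) scored 70, above 69.8% of its list. The highest daunorubicin score was 184, at a peak 5712 bp from NOLC1. Of 2 regions called only with daunorubicin the higher had a score of 33 (chr10:102086219-102086619), and none was called only in untreated cells.

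ZFPM1 (chromosome 16, 88451769 to 88537031) was the 1 gene with more untreated marking, with 13 peaks over 12090 bp with daunorubicin and 15 over 12361 bp without it. No region in its window was called only with daunorubicin. Neither library covered the annotated start, which lay 65 bp before a daunorubicin peak of 3077 bp (score 106) and 41 bp before an untreated peak of 1697 bp (score 97). On the other side of the start an untreated peak of 843 bp (chr16:88452129-88452971, score 156) was above 79.9% of its list and had no daunorubicin peak over it. It was the highest-scoring of the 13 untreated-only regions of the 10 loci. The nearest daunorubicin peak was 374 bp away, so with a gap of 1 kb allowed it would count as shared. The stretch of 250 bases between these peaks was 83.2% G and C and held 9 CACCC-like words and no GATA word. Further inside the long gene the scores ran from 14 to 41 with daunorubicin and from 10 to 43 without. The highest of the window, 255 with daunorubicin (above 97.6% of its list) and 353 without (above 96.9%), were at ZC3H18. In narrower windows the small difference turned, to 104 bp more with daunorubicin at 50 kb and 14 bp more at 10 kb.

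NFE2 (chromosome 12, 54292111 to 54301015) had the most peaks, 29 over 25232 bp with daunorubicin, against 20 over 18029 bp in untreated cells (ratio 1.40). Its higher end was marked in both, by a 663 bp daunorubicin peak of score 74 that began 43 bp outside the end and by a 1704 bp untreated peak of score 50 that crossed it. The lower end had an untreated peak of score 17 at 606 bp, and the nearest daunorubicin peak (chr12:54289340-54290180, score 59) was 1931 bp below it. That peak and one 2849 bp above the higher end (chr12:54303864-54304974, score 69) were the highest of the 14 regions called only with daunorubicin. Inside the gene the 2 lists did not overlap away from the higher end, with daunorubicin peaks of score 14 and 30 and untreated ones of score 17 and 14. Of 3 regions called only in untreated cells the highest scored 23 (chr12:54389201-54389535). The highest peaks were 184 with daunorubicin, 56837 bp above the gene, and 225 without it, at COPZ1.

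GFI1B (chromosome 9, 132945531 to 132993434) had 17 peaks over 16090 bp with daunorubicin and 16 over 14877 bp without it. The highest-scoring peak of all 10 loci in each library stood just before its first start. It scored 416 with daunorubicin, above 99.8% of its list, and 391 without it, above 98.2%. This place is also an end of TSC1, and the mark cannot be assigned to either gene. The second start, which has a GATA word in the stretch shown above, lay 152 bp before a daunorubicin peak of score 35 and 219 bp before an untreated one of score 27. At the far end a daunorubicin peak of score 65 (above 67.4% of its list) stood 523 bp outside the gene. An untreated one of score 32 (above 37.9%) stood 330 bp outside it. A further peak inside the gene had a score of 73 with daunorubicin (above 71.1%) and 24 without (above 23.9%). Of 3 regions each called in 1 library only, the highest scored 30 with daunorubicin (chr9:132879796-132880334) and 20 in untreated cells (chr9:132999620-132999985).

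BCL11A (chromosome 2, 60450520 to 60553924) was nearly bare. The daunorubicin list had 1 peak of 480 bp (chr2:60549980-60550459, score 27) inside the gene, and the untreated list had none in the whole window. That peak lay 3465 bp from the outermost of the gene's 5 annotated starts and 448 bp from the nearest one. No peak of either list lay within 2 kb of the positions 55, 58 and 62 kb beyond the outermost start, where adult red cell enhancers of human BCL11A are known. Peak absence is a statement about these lists, since depth is unknown. The highest-scoring 38626 daunorubicin peaks, as many as the untreated list holds, do not include it.

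**Figure D3:**
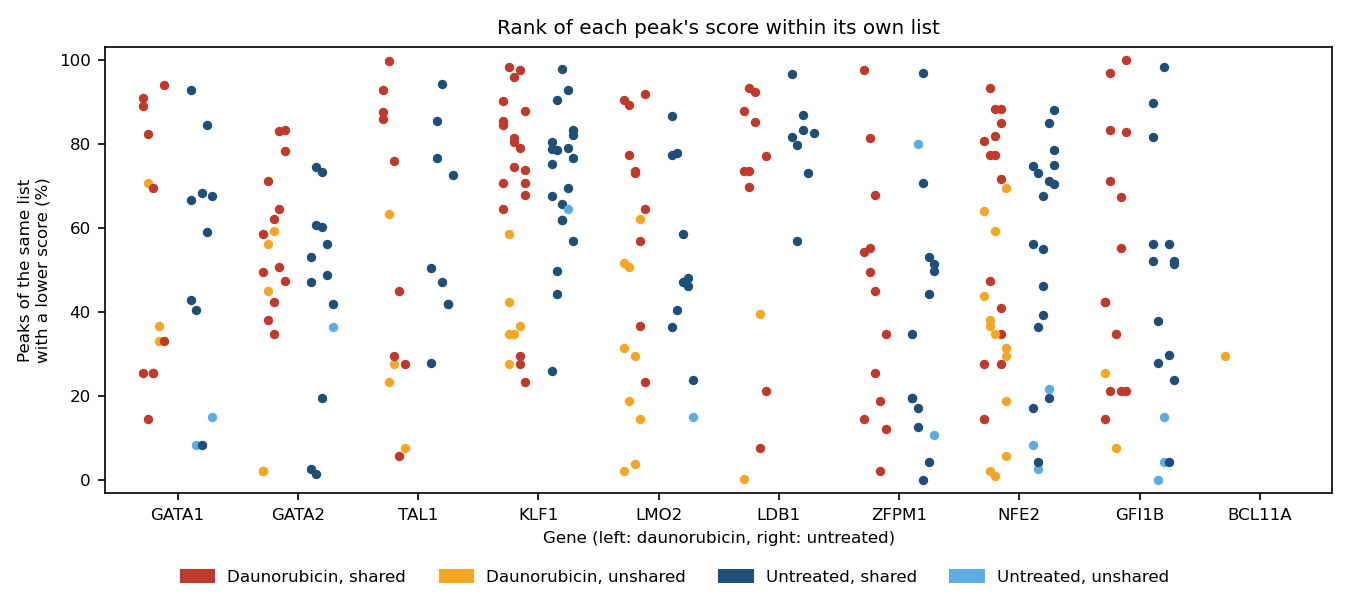
Percentage of the same list's peaks with a lower score (y axis) for every peak at the 10 genes (x axis), daunorubicin on the left and untreated on the right of each gene (1 library each). Peaks without an overlapping peak in the other list lie mostly in the lower part, and the light blue point at 79.9% is the untreated peak at ZFPM1.

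Across the 10 loci peaks covered 149906 bp with daunorubicin, against 123490 bp in untreated cells. The ratio was 1.21, beside 1.59 for the whole lists. Daunorubicin gave the longer marking at 9 genes and untreated cells at 1, beside 90.8% longer and 9.14% shorter among the 18484 protein-coding genes with a peak in the same kind of window. Past a ratio of 1.5 with daunorubicin were 2 of the 10, LMO2 and BCL11A, against 42.3% of all genes, and BCL11A had no untreated peak. None was past 1.5 the other way, against 0.601%. With equal numbers of top-scoring peaks from each list, 4 of the 10 were longer with daunorubicin and 5 were shorter (GATA1, KLF1, LDB1, ZFPM1 and GFI1B), beside 69.1% longer over all genes. In windows of 50 kb those past 1.5 were TAL1 and BCL11A, beside 40.5% of all genes. In windows of 10 kb it was BCL11A alone, beside 37.2%. The median difference was 1626 bp at the 10 genes and 2276 bp over all, and the median ratio 1.17 over the 9 genes with untreated peaks and 1.39 over all 17791 such genes. Among those, 6 of the 9 lay below the median of all genes and 3 above it. Marked length at the genes other than BCL11A was above 61.5 to 97.6% of all genes with daunorubicin and 65.3 to 96.5% without it, with the highest at NFE2 with daunorubicin and at KLF1 without it. These windows also hold neighbours. Of 25232 bp at NFE2 with daunorubicin, 7700 bp lay at ends of other protein-coding genes and 663 bp at its own. Of 19647 bp at KLF1 without the drug, 13845 bp lay at such other ends and 2211 bp at its own.

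**Figure D4:**
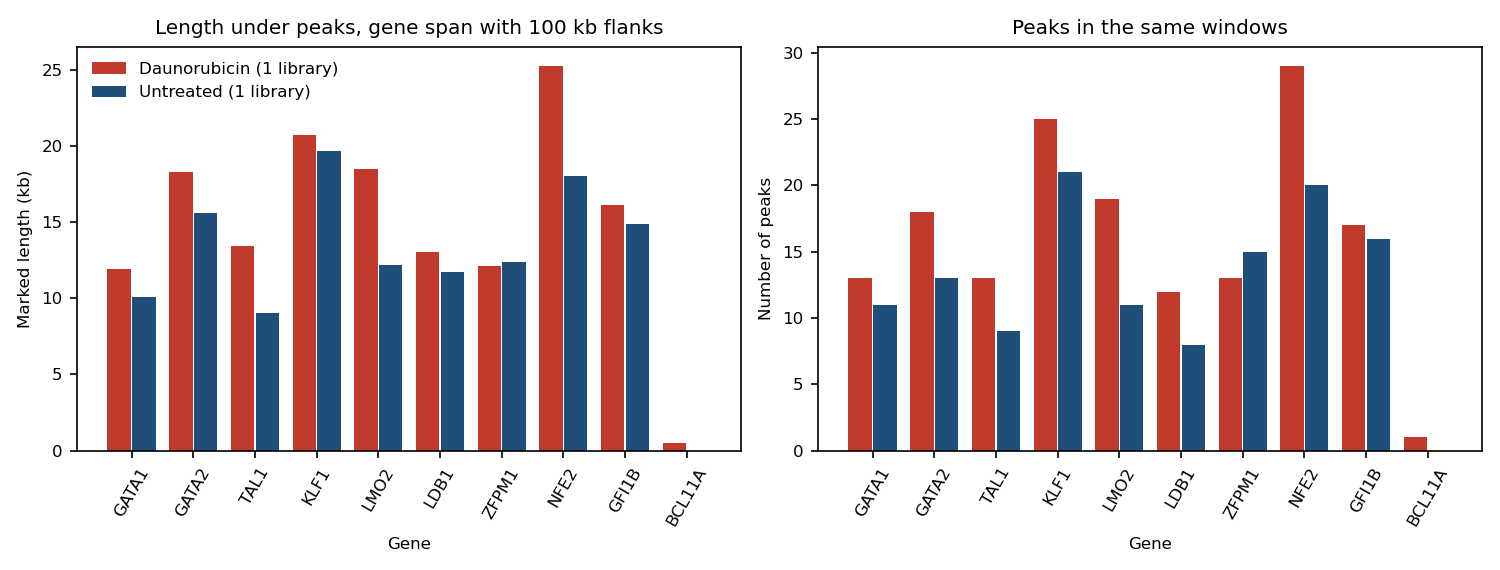
Marked length in kb and number of peaks at each gene in windows of the gene span with 100 kb on either side, daunorubicin left and untreated right (1 library each, no error bar). NFE2 has the longest marking in the daunorubicin library and KLF1 in the untreated one, and ZFPM1 is the gene where the untreated bars are higher.

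**Figure D5:**
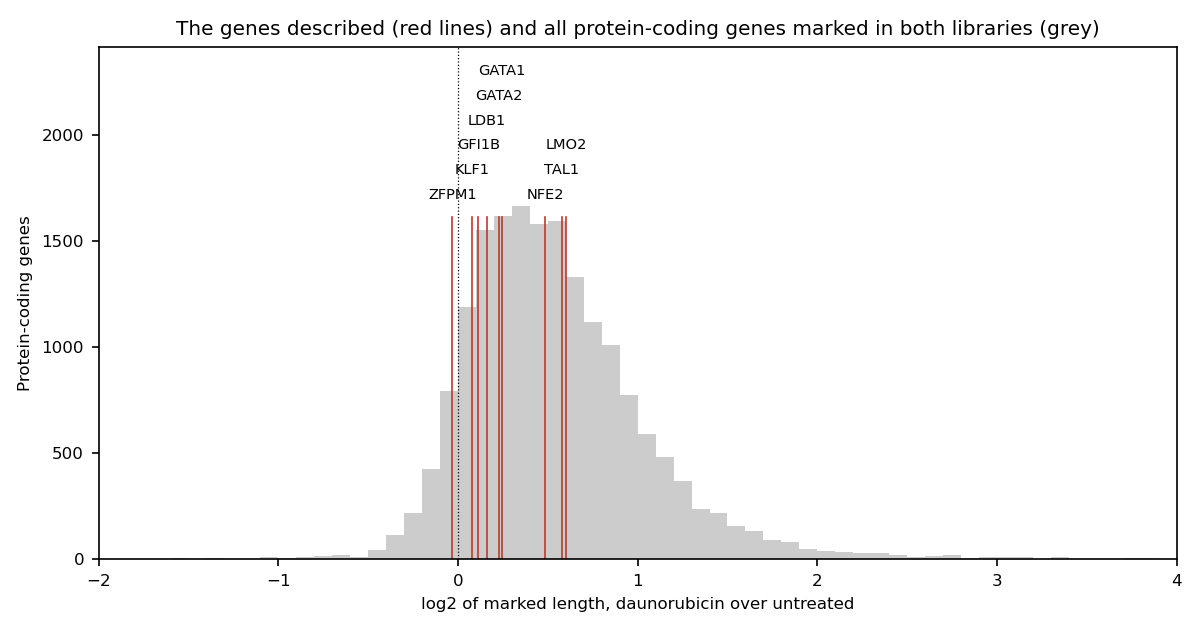
Number of protein-coding genes (y axis) by the log2 ratio of marked length, daunorubicin over untreated (x axis), for genes marked in both libraries in grey, with 9 of the 10 genes as red lines. ZFPM1 lies just below 0, and LMO2 is the highest at a ratio of 1.52.

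Merging both lists gave 167 regions at the 10 genes. Of these 107 were in both libraries (64.1%, Wilson 95% interval 56.6 to 71.0), 47 only with daunorubicin (28.1%, 21.9 to 35.4) and 13 only in untreated cells (7.78%, 4.61 to 12.9). In the whole lists 49.2% of regions were in both, 44.6% were only with daunorubicin and 6.13% only untreated. With equal numbers of top-scoring peaks from each list the order turned, to 14 regions only with daunorubicin (10.4%, beside 20.3% of all regions) and 40 only in untreated cells (29.9%, beside 20.2%). With scores of at least 43 there were 21 only with daunorubicin (22.6%, beside 40.3%) and 15 only in untreated cells (16.1%, beside 4.81%). Intervals cover counting error only, and regions of 1 locus are not independent. LMO2 and NFE2 held 23 of the 47 daunorubicin-only regions and the other 8 genes 24. In both libraries, only with daunorubicin and only untreated, regions were 10, 9 and 1 at LMO2 and 15, 14 and 3 at NFE2. The daunorubicin-only share at LMO2 and NFE2 was thus close to the 44.6% of all regions. At the other 8 genes together it was lower. Over the 10 loci an untreated peak overlapped 70.6% of the daunorubicin peaks (63.2 to 77.1), beside 53.7% in the whole list. A daunorubicin peak overlapped 89.5% of the untreated ones (82.9 to 93.8), beside 89.3%.

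The unshared peaks were small, here as in the whole lists. At the 10 genes the 47 daunorubicin-only peaks were 449 bp wide at the median, with a median score of 29 and a highest score of 72, beside medians of 435 bp and 26 for all daunorubicin-only peaks. The 113 shared ones had medians of 894 bp and 70. The 13 untreated-only peaks had medians of 373 bp and 20, beside 349 bp and 21 for all untreated-only peaks, and the 111 shared ones had medians of 930 bp and 53. Of the 47, 11 scored above the median of their list, and of the 13 untreated-only peaks 2 did. The same share was not computed for all unshared peaks, so these counts have no background beside them. Marked length away from the gene and from any other protein-coding gene end was 67212 bp with daunorubicin, against 45996 bp in untreated cells. At the genes' own ends it was 15365 bp with daunorubicin and 18068 bp in untreated cells. It was lower with daunorubicin at GATA1, TAL1, ZFPM1 and NFE2 and higher at KLF1, LMO2, LDB1 and GFI1B. Each peak was counted whole at 1 place, with the gene's own ends taken first. The own-end value of LDB1 is thus wholly the peak at PPRC1 (1304 bp with daunorubicin, 1213 bp without). That of GFI1B includes the peak at TSC1 (1236 bp with daunorubicin, 1376 bp without). Neither mark can be assigned to 1 gene. At GATA1 and TAL1 a further daunorubicin peak (644 and 635 bp) faced the untreated end peak but was counted in the gene body. No such split is given here for all genes. At 6 of the 107 regions in both libraries 1 untreated peak faced several daunorubicin peaks, at GATA1, GATA2, TAL1, KLF1, LDB1 and GFI1B, 5.61% against 4.76% of all such regions. The reverse was seen at 4 (3.74% against 3.35%).

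An own end was marked within 1 kb at 7 genes with daunorubicin and 8 without it. GATA2 and BCL11A had no end peak in either library, and the difference was ZFPM1. These are the ends of the gene span, not the starts of the promoter table. The ZFPM1 start had a daunorubicin peak at 65 bp, and the second GATA2 start was covered in both libraries. With ends of 2.5 kb the number was 8 with daunorubicin and 8 without it. Of all protein-coding genes, 57.6% had an end marked in both, 4.91% only with daunorubicin and 0.749% only in untreated cells.

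Other genes of the same network were described from lists fixed with earlier results of these data known. Among 35 partners and antagonists of these factors, 34 had a peak in their window, and 15 (44.1%) were past a ratio of 1.5 with daunorubicin and none the other way, close to the 42.3% of all genes. Their median difference was 4638 bp, beside 2276 bp over all genes. Differences in bp are not scaled to the length of the window, which includes the whole gene, and the order by ratio differs. The largest gains in bp were at SOX6, a partner of BCL11A in globin silencing (45815 bp with daunorubicin, 23746 bp without), TCF12, an E protein that dimerises with TAL1 (30030 bp with daunorubicin, 13492 bp without), and TCF4, another E protein (26448 bp with daunorubicin, 12044 bp without). The 3 that were shorter were TCF3, also an E protein (14204 bp with daunorubicin, 15838 bp without), CBFA2T3, the corepressor ETO2 of the TAL1 complex (19693 bp with daunorubicin, 20185 bp without), and MAFG, a small partner of NFE2 (21986 bp with daunorubicin, 22426 bp without). Of 22 red cell target genes, 21 had a peak in the window, 9 (42.9%) were past 1.5 with daunorubicin and none the other way, with a median difference of 3414 bp. XK, which encodes a partner of the Kell protein (17465 bp with daunorubicin, 8506 bp without), ANK1, the red cell ankyrin (20616 bp with daunorubicin, 13046 bp without), and RHAG, the Rh-associated glycoprotein (17031 bp with daunorubicin, 10930 bp without), gained most. TFRC, the transferrin receptor, was the 1 shorter (14137 bp with daunorubicin and 14867 bp without). Windows of the globin genes HBB and HBG1 overlap, so these are not separate loci.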

How the data were processed

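Each of the 4 libraries had 1 peak list without column headings. Peaks carry a score deposited by the authors whose calculation no source used here states. The tools, per the submitters' processing notes, were MACS2 2.1.1, Bowtie2 2.3.4.3 and deepTools 3.2.1, and the builds were hg19 and hg38, with no role given for either. The sequence names are those of hg38, and 49.0% of 35116 RefSeq starts lay within 1 kb of a daunorubicin peak (9.45% after a shift of 100 kb) and 45.1% of an untreated one (6.50%). Gene spans came from RefSeq GRCh38.p14, whose gene table used here gives no exons, introns or UTRs. Coordinates are counted from 1.

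Marked length is the number of base pairs under peaks in a window. Peaks overlapping by at least 1 bp were shared, and overlapping peaks of both H3K27ac lists were merged into regions. A gene end is either annotated end with a peak within 1 kb. With 1 library per condition there is no test, and a ratio of 1.5 served as the call. All 10 genes are named. The peaks named are those near ends, the highest of each library and the highest unshared ones, and other peaks named were chosen after their values were seen. From the partner and target lists the 3 largest gains and losses are named. A check of cell type marker genes and the highest peaks of 1 window are not reported here. The 10 genes and the lists were chosen with earlier results of these data known. Overlap functions were tested on simulated peaks against bedtools 2.31.1 and gave equal values in 5 of 5 checks. Python 3.11.15, numpy 2.4.6, scipy 1.17.1 and matplotlib 3.10.9 were used.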

Additional observations from a re-analysis of the deposited data

How the results depend on the processing

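With 1 library per condition no library could be left out. No paired analysis was possible because each condition had 1 library and no test was made. Removing peaks on input peaks changed no value at the 10 loci and could not, since no input peak lay there. With equal numbers of top-scoring peaks (daunorubicin scores of at least 33), 4 of the 10 genes were longer with daunorubicin and 5 shorter, 0 were past 1.5 (18.1% of all genes), and regions only with daunorubicin or only untreated were 14 and 40 (10.4% and 29.9%, against 20.3% and 20.2% in the whole lists). The difference then turned at GATA1 (-3314 bp), GFI1B (-3016 bp), KLF1 (-2070 bp) and LDB1 (-338 bp), and partners and targets past 1.5 were 4 and 3. With scores of at least 43, 1 gene was past 1.5 (LMO2, 14266 bp with daunorubicin and 4706 bp without), beside 37.1% of all genes. KLF1 (-1692 bp) and LDB1 (-338 bp) turned, and 1 target was past 1.5 the other way, beside 1.49% of all genes. Regions were 57 in both, 21 only with daunorubicin and 15 only untreated (22.6% and 16.1% for the last 2, against 40.3% and 4.81% in the whole lists). In windows of 50 kb, regions in both, only with daunorubicin and only untreated were 69, 27 and 8. The last 2 made up 26.0% and 7.69%, against 44.6% and 6.13% in the whole lists. ZFPM1 turned (104 bp). In windows of 10 kb the same 3 classes of regions held 38, 13 and 6 (22.8% and 10.5% for the last 2, against the same whole-list shares). There 1 gene was past 1.5 (37.2% of all genes), and KLF1 (-424 bp), LDB1 (-578 bp) and ZFPM1 (14 bp) turned. A reciprocal overlap of 50% left 78 of the 160 daunorubicin and 41 of the 124 untreated peaks unshared. With a gap of 1 kb allowed, 34 daunorubicin and 8 untreated peaks were unshared. Shares over the whole lists were not computed under either rule, so these counts have no background beside them. BCL11A had no peak with scores of at least 43 or with equal numbers. Genes with a marked end were 6 to 8 with daunorubicin and 6 to 8 without it under these settings and with ends of 2.5 kb. The cause of these shifts was not tested. Over all 50 pairs of gene and setting, 37 kept their direction with a ratio of daunorubicin to untreated length within 1.5 times that reported (for BCL11A, the direction alone), 3 did not and 10 turned. The 37 include the 10 genes with peaks on input peaks removed, where the outcome was fixed in advance. They also include LDB1 at 50 kb and BCL11A at 50 and 10 kb, where the narrower window held the same peaks. The 37 therefore overstate how stable the values are. The differences in bp moved more: that at GATA1 was 87 bp at 50 kb and that at NFE2 894 bp at 10 kb.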
